A study of Mus musculus with 5 samples.

Results

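The phosphoinositide phosphatases described here are Inppl1 (encoding SHIP2), Inpp5d (encoding SHIP1), Inpp4a and Inpp4b, measured as RNA in cells that were sorted from mouse bone marrow as Hardy fraction A. Every row of the deposited table with one of these 4 symbols was taken, which gave 7 transcript rows of 26531 in all. This fraction holds the earliest B lineage stage of Hardy's staging, and cells of other lineages were not removed before the sort. The 5 libraries came from C57BL/6 mice aged 6 to 7 weeks: 2 wild type (wt), 2 with the Ikaros zinc finger 1 mutation Ikaros_ZnF1-/- (dF1) and 1 with the zinc finger 4 mutation Ikaros_ZnF4-/- (dF4). Ikaros is a DNA-binding regulator of lymphocyte development with several zinc fingers, and the labels give no further detail of the alleles and no treatment. The series text calls the dF1 libraries biological replicates, while the source mice of the wt libraries are not stated, so the spread between replicates may be technical in wt. It also describes the dF4 library as thinly covered, at about 598000 reads by the estimate used here. Ikzf1 RNA, from 141.1 RPKM in wt replicate 2 to 237.7 in dF4, was found in all 5 libraries, and a value over the whole transcript cannot check a change in a single finger.

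These enzymes remove single phosphates from the inositol ring of membrane lipids. Class I PI3 kinases make phosphatidylinositol trisphosphate, a lipid that recruits kinases such as Akt and Btk to the membrane. SHIP1 and SHIP2 remove its 5-phosphate and leave a bisphosphate that INPP4A and INPP4B then act on by removing the 4-phosphate. SHIP1 is found mainly in blood cells, where it is recruited by inhibitory receptors such as FcγRIIB, and SHIP2 is found in most tissues.

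The set was chosen by the RPKM values of Inppl1 in the dF1 and wt libraries, where its difference was already known, and the other members were added as its relatives with their values available. Differences of the 4 genes between dF1 and wt are therefore given as descriptions, with no test. Levels are RPKM, which are per length and can be compared between genes, and differences are on the log2(RPKM + 1) scale, which understates the change of low transcripts.

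The table lists Inppl1 as a pair of RefSeq transcripts with different first exons, NM_001122739 and NM_010567. In the GENCODE M21 annotation both have 29 exons and the same 3771 coding bases, so they differ outside the coding sequence, by 83 and 348 exonic bases respectively. The gene lies on chromosome 7, minus strand. The stretches before the 2 starts are shown because nearly all Inppl1 signal was listed under one of them, with the stretch before the Inpp5d start for comparison. Sequences are from RefSeq (GRCm38.p6, a later build than the mm9 used by the submitters), 5′ to 3′ on the gene's strand, without bases that are exonic in these transcripts. Capitals mark GGGAA, the core of the motif that Ikaros binds, searched on both strands (TTCCC on the other).
Inppl1, outer start (NM_010567), chr7:101838230-101838476, minus strand: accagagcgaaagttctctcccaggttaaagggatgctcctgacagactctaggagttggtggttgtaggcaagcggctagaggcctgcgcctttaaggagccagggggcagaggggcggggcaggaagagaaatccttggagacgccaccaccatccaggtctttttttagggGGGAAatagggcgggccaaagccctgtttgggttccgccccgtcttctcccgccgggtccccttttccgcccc
Inppl1, inner start (NM_001122739), chr7:101837825-101837888, minus strand: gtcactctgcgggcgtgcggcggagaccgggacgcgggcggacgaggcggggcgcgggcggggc
Inpp5d, chr1:87620062-87620311, plus strand: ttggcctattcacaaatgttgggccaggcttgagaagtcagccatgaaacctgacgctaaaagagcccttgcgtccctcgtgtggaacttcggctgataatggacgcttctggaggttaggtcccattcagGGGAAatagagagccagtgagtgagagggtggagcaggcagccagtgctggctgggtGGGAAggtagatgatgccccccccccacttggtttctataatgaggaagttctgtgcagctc
In the 250 bases before each start, GGGAA was matched 1 time at the outer Inppl1 start, 76 bases before it, 0 times at the inner start and 2 times at the Inpp5d start, 119 and 62 bases before it. Of 32851 promoter windows of the same length, 56.2% hold GGGAA. The longer TGGGAA, which contains GGGAA, is in 21.6% of the windows and was matched 1 time at Inpp5d and 0 times at either Inppl1 start. Of the 3 Inpp4a windows 1 held both, at a start inside the gene, and the Inpp4b window held neither. These matches describe letters in a window and show no binding.

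Inppl1 signal lay in the transcript of the inner start in every library. NM_001122739 was at 19.2 and 20.4 RPKM in the wt pair, 9.2 and 8.3 in the dF1 pair and 12.3 in dF4. NM_010567 was at 0.1 and 0.1 RPKM in the wt pair, was listed at 0 in both dF1 libraries and was at 0.2 in dF4, which corresponds to 1 read or less. The transcripts share 98.2% of the exonic bases of NM_001122739, and how the authors divided reads between them is not given in the sources used here, so the split depends on that step. Phox2a and Folr2, the protein-coding neighbours of Inppl1, were between 0 and 1.3 RPKM in every library. Phox2a overlaps the end of Inppl1 on the opposite strand in GENCODE M21.

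Both dF1 libraries held less Inppl1 than either wt library. The wt mean was 19.8 ± 0.849 RPKM (SD, n = 2) and the dF1 mean 8.75 ± 0.636 (SD, n = 2), so that wt was 2.26-fold higher. The log2 difference was -1.09 (SE 0.13). Replicates of 1 genotype differed by 0.08 in wt and -0.13 in dF1 on the same scale, less than the difference between genotypes. Leaving out any 1 of the 4 libraries gave values between -1.16 and -1.03. Inppl1 was chosen by these same values, so neither comparison is support for the difference. The mice behind the dF1 pair differed in sex, since Xist (NR_001463) was at 93.2 RPKM in dF1 replicate 1 and listed at 0 in dF1 replicate 2; the part of sex in these values was not tested.

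Inpp5d, the SHIP enzyme of blood cells, was the most abundant of the 4 genes in every library. Its main transcript, NM_001110192, was at 113 and 99.5 RPKM in the wt pair, 117.5 and 141 in the dF1 pair and 94.8 in dF4. Both dF1 libraries lay above both wt libraries, with means of 129 ± 16.6 and 106 ± 9.55 RPKM (SD, n = 2 each) and a log2 difference of 0.28 (SE 0.15). The gap between the closest libraries of the groups, 113 and 117.5 RPKM, was smaller than the gap between the dF1 replicates. The second transcript, NM_001110193, was at 7.1 and 5.8 RPKM in the wt pair, 6.9 and 10.2 in the dF1 pair and 8 in dF4, and the groups overlapped. It made up 5.51% to 6.75% of the gene's summed RPKM in the wt and dF1 libraries and 7.78% in dF4. In GENCODE M21, it lacks 183 of the coding bases of the main transcript, which holds 99.9% of its exonic bases. That annotation gives it 3854 exonic bases against a deposited length of 4783, so the row may differ from it. How reads were divided between the 2 transcripts is not given, and the share depends on that step.

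The SHIP genes thus stood in a different proportion in dF1. Inpp5d was 5.89-fold and 4.88-fold above Inppl1 in wt, 12.8-fold and 17-fold above it in dF1, and 7.71-fold above it in dF4. The log2 ratio of Inppl1 to Inpp5d averaged -2.42 ± 0.19 (SD, n = 2) for wt and -3.88 ± 0.29 (SD, n = 2) for dF1, and was -2.95 in dF4. The ranges of wt and dF1 did not overlap, and the single dF4 value lay between them. This ratio uses the Inppl1 values for which the gene was chosen.

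**Figure D1:**
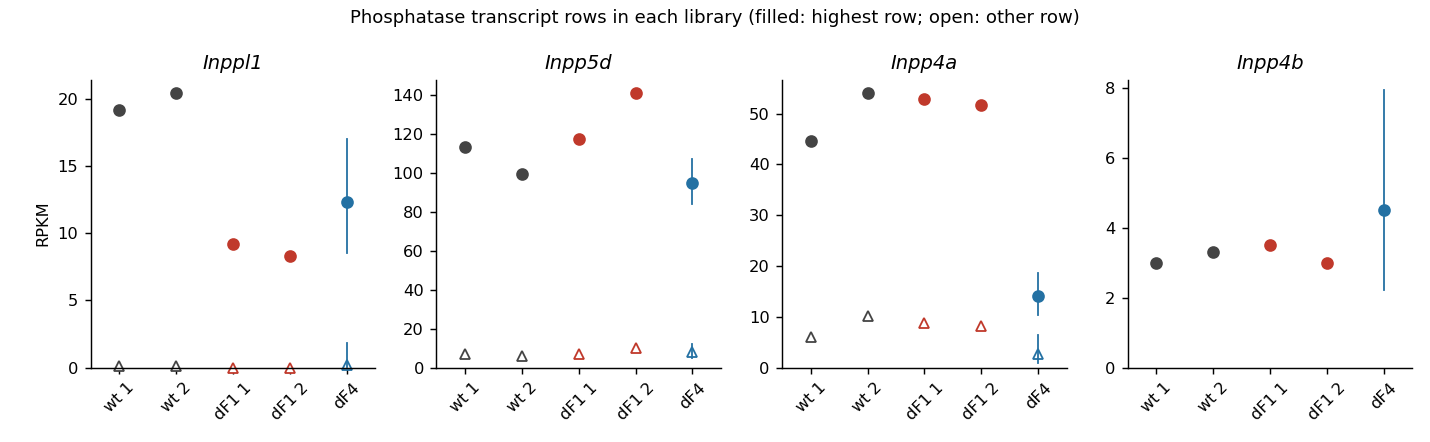
RPKM (vertical axis, linear, from 0, a separate scale for each gene) of every transcript row of the 4 genes in each of the 5 libraries. Filled circles are the row with the highest mean and open triangles the other row, and the dF4 bars are exact 95% Poisson intervals on estimated reads; Inppl1 was at 8.3 and 9.2 in dF1 and at 19.2 and 20.4 in wt, and Inpp4a was at 14.1 in dF4 and 44.6 to 54 elsewhere.

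**Figure D2:**
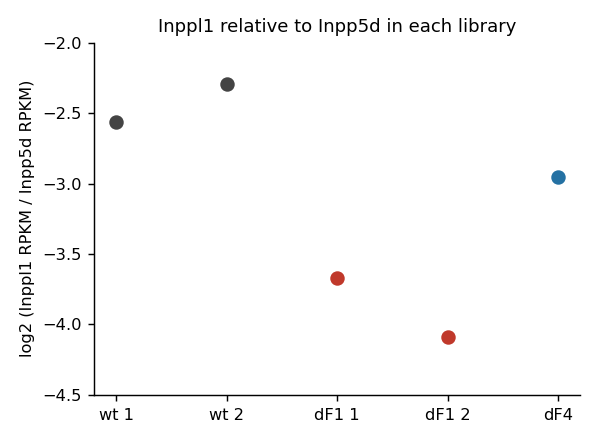
The log2 ratio of Inppl1 to Inpp5d RPKM (vertical axis) in each library, from the main transcript of each gene. The dF1 libraries lie at -3.67 and -4.09, the wt libraries at -2.56 and -2.29 and the dF4 library at -2.95.

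Inpp4a, the more abundant of the 4-phosphatases, differed between wt and dF1 by less than the spread between the wt replicates. NM_030266 was at 44.6 and 54 RPKM in the wt pair and 52.9 and 51.6 in dF1, where both dF1 libraries lay between the wt libraries. The log2 difference was 0.09 (SE 0.14), and -0.05 without wt replicate 1. The shorter NM_172971 was at 6 and 10.2 RPKM in the wt pair and 8.7 and 8.1 in dF1, also between the wt libraries. It shares 62.2% of its exonic bases with NM_030266 and made up 11.9% to 15.9% of the summed Inpp4a RPKM in these 4 libraries. Inpp4b was low throughout, at 3 and 3.3 RPKM in the wt pair, 3.5 and 3 in the dF1 pair and 4.5 in dF4. Its log2 difference between dF1 and wt was 0.03 (SE 0.16), with groups that overlapped.

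The order of levels was the same in every library: Inpp5d, then Inpp4a, Inppl1 and Inpp4b. In wt and in dF1 the ranges of neighbours in this order did not overlap. In dF4, Inpp4a at 14.1 RPKM (95% Poisson interval 10.4 to 18.6) and Inppl1 at 12.3 (8.52 to 17) could not be separated by counting error.

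Across the table, the comparison of dF1 with wt by limma over 12213 rows whose mean reached 1 RPKM called 0 rows at an adjusted p of 0.05 (0%), and 875 rows had an unadjusted p under 0.05. Of the 7 rows of the phosphatases 6 were tested, and 0 were called. With robust variances limma called 33 rows (0.27%) and with a minimum mean of 5 RPKM it called 25 of 8759 (0.285%). The main Inppl1 row was among both sets, which is no support because this contrast chose it. Both dF1 libraries lay below both wt libraries for 17.9% of rows tested, among them 1 row of the phosphatases (Inppl1), and above both for 16.9%, among them 1 row (Inpp5d). A gap of this kind with a log2 difference of -1 or less was found in 82 rows (0.671%). Inppl1 was among them, which is no support either, because the gene was chosen by these values.

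Cell type markers also differed between these libraries, and in bulk samples fewer cells of a type and less RNA per cell cannot be told apart. The early B lineage markers were present, with a summed level of 568.6 to 807.9 RPKM in the wt pair and 638.9 to 668.2 in dF1 over 14 genes, none of them at 0 in wt or dF1, and 2 were higher and 3 lower in both dF1 libraries. Of all rows tested, 16.9% were higher and 17.9% lower in both. The plasmacytoid dendritic cell markers summed to far more, 4764.5 to 5407.2 RPKM in the wt pair and 4602.7 to 5089.4 in dF1, with 5 of 14 lower in both dF1 libraries and 2 of 14 higher. Erythroid and megakaryocyte markers summed to 169 and 214.7 RPKM in the wt pair and 135.1 and 148.2 in dF1, with 1 of 12 lower and 1 higher in both dF1 libraries and the megakaryocyte markers Pf4, Gp9 and Vwf at or near 0. The lower sum in dF1 came from Tfrc, at 111.5 and 152.6 RPKM in the wt pair and 65.3 and 66.9 in dF1. The higher gene was Car2, at 51 and 31.2 against 66.1 and 60.8. Slc4a1 and Alas2 were higher, and Car2 lower, in replicate 2 of both genotypes. Monocyte markers summed to 353 and 417.4 RPKM in the wt pair and 433.3 and 460.2 in dF1, with 1 of 10 higher and 0 lower. The neutrophil sum ran from 408.6 to 1091.7 RPKM in the wt pair and from 221.2 to 864.2 in dF1, with 1 of 13 genes higher and 0 lower, and was higher in replicate 2 of both genotypes. The NK cell sum was 964.1 to 2166.8 RPKM in the wt pair and 2162.5 to 2432.2 in dF1, with 5 of 12 higher and 0 lower. T cell markers summed to 157.9 to 276.3 RPKM in the wt pair and 265.1 to 277 in dF1, with 4 of 10 higher and 2 lower. Stromal and endothelial markers summed to 136.2 to 146.8 RPKM in the wt pair and 145.4 to 152.8 in dF1, with 2 of 10 higher and 2 lower. The part of any of these in the Inppl1 and Inpp5d values was not tested.

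Other phosphatases of inositol lipids and inositol phosphates were set beside the 4 genes. With the main settings 0 of all 12213 rows were called, so 0 passing in this and the later lists follows from that. It does not show that these genes are unchanged. Over 8 other 5-phosphatases, 7 were tested and 0 passed in either direction, with a median log2 difference of -0.03 against 0.01 over all rows tested. Both dF1 libraries were below wt for 3 of the 7 and above for 1, beside 17.9% and 16.9% of all rows tested. The most abundant were Inpp5k at 54 and 56.6 RPKM in the wt pair and 54.1 and 53.8 in dF1, Inpp5b at 40.1 and 38.1 against 42.6 and 44.4, and the synaptojanin Synj1 at 15.5 and 15.1 against 15.1 and 17.2. Of those below, 2 were named after their values were seen: Synj2, at 3.9 and 4.2 RPKM in the wt pair and 1.9 and 2.5 in dF1, and Ocrl, the enzyme mutated in Lowe syndrome, at 2.1 and 2.5 against 1.4 and 1. Their limma adjusted p was 0.526 and 0.596. Of the 9 genes of the myotubularin 3-phosphatase list 8 were tested and 0 passed, with differences between -0.22 and 0.06. Its most abundant members were the myotubularins Mtmr3, Mtmr14 and Mtmr1, between 28.7 and 39.1 RPKM in the wt pair and dF1. Of the 5 genes in the list of Sac domain phosphatases and 4-phosphatases, 5 were tested and 0 passed. They include Tmem55b, Sacm1l and Fig4, and differences over the list lay between -0.18 and 0.09.

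Of the phosphoinositide kinase genes, 0 passed the test, beside 0 of all 12213 rows tested. Of 10 genes in the list of class I PI3 kinase subunits and the adaptor Pik3ap1, 9 were tested and 0 passed. The wt and dF1 libraries overlapped in every one tested, with differences between -0.1 and 0.11. Over all rows tested, 34.7% had groups that did not overlap. Pik3cd, the leukocyte catalytic subunit, was at 160.7 and 146.3 RPKM in the wt pair and 152.9 and 172.5 in dF1. The adaptor Pik3ap1 was at 140.9 and 162.9 against 137.8 and 159, and the regulatory subunit Pik3r5 at 63.9 and 49.5 against 61 and 58.3. Pik3r1, which encodes p85α, was at 45.2 and 36.3 RPKM in the wt pair and 45 and 40.2 in dF1, and Pik3cg at 28.1 and 22.2 against 25.2 and 25.6. Among 16 other phosphoinositide kinases 15 were tested and 0 passed. Of the 15, 4 lay above and 3 below wt in both dF1 libraries, beside 16.9% and 17.9% of all rows tested. The highest, Pip5k1c, Pip4k2a and Pip4k2b, lay at 70.7 to 90.9, 80.7 to 89.8 and 28.4 to 30.9 RPKM over the wt and dF1 libraries.

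Among 23 genes that read or act below the trisphosphate and its bisphosphate product 23 were tested and 0 passed, with a median of -0.04. Of the 23, 6 lay above and 3 below wt in both dF1 libraries, beside 16.9% and 17.9% of all rows tested. Akt1 was at 70.4 and 70.3 RPKM in the wt pair and 59.4 and 75.5 in dF1, and the phospholipase Plcg2 at 97 and 95.8 against 94.1 and 106.4. The tyrosine kinase Btk was at 36 and 36.2 RPKM in the wt pair and 36.5 and 37.5 in dF1, and Plekha2, which binds the SHIP product, at 47.1 and 32.7 against 43.5 and 41.5. Of 12 soluble inositol phosphate enzymes 11 were tested and 0 passed, with a median of 0.06. Its members Ip6k1, Impa1 and Itpkb were the most abundant.

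A list of receptors, adaptors and other signalling genes linked to SHIP1, not all of which recruit it, spread more widely. Of 15 genes 14 were tested and 0 passed, with differences between -1.03 and 0.73. Of the 14, 5 lay above and 3 below wt in both dF1 libraries, beside 16.9% and 17.9% of all rows tested. Fcgr2b, the inhibitory IgG receptor, was at 21.5 and 21.2 RPKM in the wt pair and 32.2 and 38 in dF1 (log2 difference 0.69, SE 0.13, limma adjusted p = 0.34). Cd22, an inhibitory sialic acid receptor of B cells, was at 15.9 and 23.4 RPKM in the wt pair and 8.8 and 9.1 in dF1 (-1.03, SE 0.21, limma adjusted p = 0.376). These receptors thus lay on opposite sides of wt. Cd72 was at 97.8 and 109.8 RPKM in the wt pair and 80 and 73.8 in dF1 (limma adjusted p = 0.594). Dok3, a B cell and myeloid adaptor, was at 7 and 6.4 against 4.3 and 6.6, and the phosphatase Ptpn6 and the kinase Lyn overlapped between groups at 274.7 to 341.8 and 57.1 to 75.6 RPKM.

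Among 9 binding partners of SHIP2 7 were tested and 0 passed. Of the 7, 3 lay above and 3 below wt in both dF1 libraries, beside 16.9% and 17.9% of all rows tested. Flna, the actin crosslinker filamin A, was at 128.3 and 110.6 RPKM in the wt pair and 131.4 and 152 in dF1. The receptor kinase Epha2 was at 92.2 and 112 RPKM in the wt pair and 70.4 and 61.4 in dF1 (log2 difference -0.62, SE 0.15, limma adjusted p = 0.487), and the adaptor Sh3kbp1 at 39.8 and 31.6 against 31.2 and 35.4. Arap3, a GTPase-activating protein named after its values were seen, was at 8.1 and 7.6 RPKM in the wt pair and 14 and 16.3 in dF1 (0.86, SE 0.14, limma adjusted p = 0.301). Over all 107 pathway genes 99 were tested, 0 passed and 12 had an unadjusted limma p under 0.05, beside 875 of all 12213 rows tested. Both dF1 libraries lay below wt for 18 of the 99 and above for 21, beside the 17.9% and 16.9% of all rows.

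**Figure D3:**
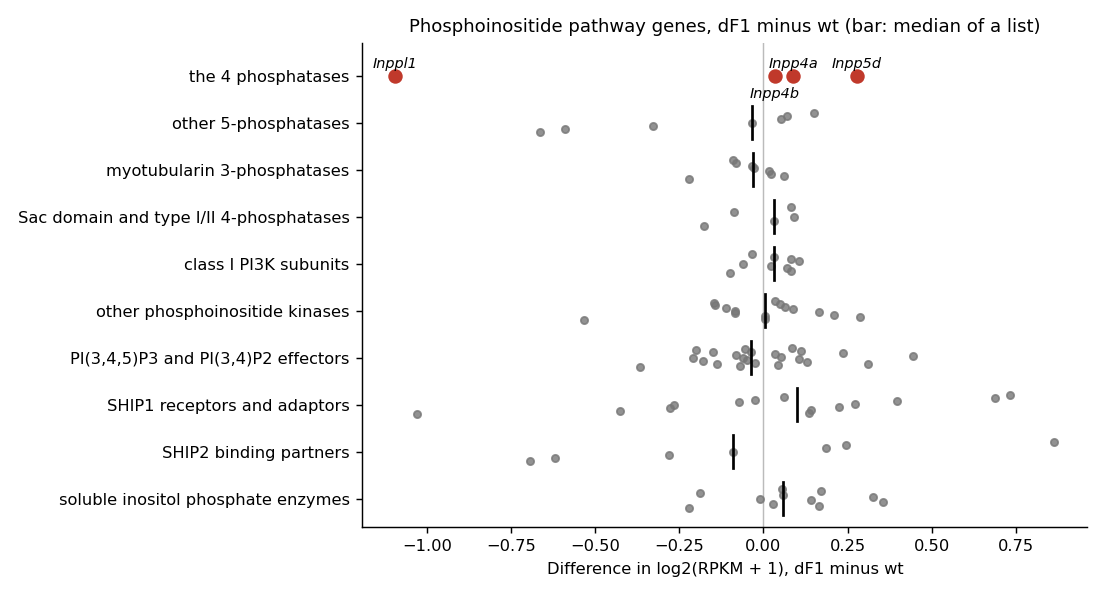
Differences in log2(RPKM + 1) between the dF1 and wt means (horizontal axis) for the main row of the 4 phosphatases (red) and for the tested genes of 9 pathway lists (grey, with the list median as a bar). Inppl1 lies at -1.09, and the pathway genes lie between -1.03 and 0.86. Inppl1 was chosen by the values of this contrast, so its place beside the lists is a description only.

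The dF4 library has no replicate and is described without a test. It differed from wt most at Inpp4a among the 4 genes. NM_030266 was at 14.1 RPKM (from about 48 reads, 95% Poisson interval 10.4 to 18.6) against 44.6 and 54 in wt, a log2 difference of -1.73, so that the wt mean was 3.5-fold higher. NM_172971 was at 2.7 RPKM (0.902 to 6.48, about 5 reads) against 6 and 10.2, and the interval holds the lower of these. Inppl1 was at 12.3 RPKM (8.52 to 17, about 35 reads), below both wt libraries and above both dF1 libraries, with a log2 difference from wt of -0.64. The interval holds the value of 9.2 in dF1 replicate 1 and neither wt value. Inpp5d was at 94.8 RPKM (84 to 107, about 281 reads), below both wt libraries, and the interval holds the lower of them. Inpp4b was at 4.5 RPKM (2.22 to 7.95, about 11 reads), an interval that holds both wt values, so a difference was not detectable at this depth. The intervals cover counting error only.

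A row was counted as different in dF4 when it lay outside both wt libraries, at least 1 from their mean on the log2 scale, with wt libraries within 0.5 of each other and a mean over the 5 libraries of at least 5 RPKM. Of 7867 rows that could be counted, 10.4% were lower and 7.75% higher. Among the phosphatases 4 of the 7 rows could be counted, and 1, the main Inpp4a row, was lower. NM_172971 was not counted because the wt libraries lay too far apart in it.

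Marker genes differed widely between dF4 and wt, where 44.7% of all rows tested were above both wt libraries in dF4 and 42.3% below both. The plasmacytoid dendritic cell sum was 622.2 RPKM in dF4, with 14 of 14 genes below both wt libraries and Cox6a2, Cd300c and Klk1 listed at 0. The neutrophil sum was 33882.3 RPKM with 13 of 13 above, the monocyte sum 1452.2 with 7 of 10 above and 1 below, the T cell sum 634.2 against 157.9 to 276.3 in wt with 10 of 10 above, and the early B lineage sum 1250.8 with 8 of 14 above, 4 below and Vpreb2 listed at 0. NK cell markers summed to 936.7 RPKM with 7 of 12 below and 0 above, and erythroid and megakaryocyte markers to 929.4 with 10 of 12 above and 1 below. Stromal and endothelial markers summed to 139.8 RPKM with 6 of 10 above and 3 below, so the sum alone hides opposite changes. Of those above, Cxcl12 was at 62.6 RPKM in dF4 against 0.7 and 0.7 in wt. The 3 below were Kdr, Cdh5 and Pecam1, the last at 33.4 RPKM against 79.3 and 86.2. Sex differed too, since Xist (NR_001463) was at 77.7 and 83 RPKM in the wt pair but listed at 0 for the dF4 library, and Eif2s3y at 41.4 RPKM in dF4 and listed at 0 in both wt libraries, so that sex and genotype cannot be told apart here. The part of these in the Inpp4a and Inppl1 values was not tested.

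Of 82 pathway genes that could be counted in dF4, 7 were higher and 6 lower, beside 7.75% higher and 10.4% lower of all rows that could be counted. Dok3 was at 150 RPKM in dF4 against 7 and 6.4 in wt, Fcgr2b at 55.6 against 21.5 and 21.2, and Flna at 385.4 against 128.3 and 110.6. Cd22 was at 65 RPKM against 15.9 and 23.4, with wt libraries too far apart to be counted. Epha2 was at 3.4 RPKM against 92.2 and 112, and the lipid kinase Pip4k2a at 38.6 against 89.8 and 80.7. Pik3cd at 171.4 RPKM was above both wt values of 160.7 and 146.3. Inpp5k was at 33.4 RPKM against 54 and 56.6, and Inpp5b at 28.6 against 40.1 and 38.1. Pdpk1, the kinase that activates Akt, was named after its values were seen and was at 6.6 RPKM in dF4 against 28.6 and 31.9 in wt.

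**Figure D4:**
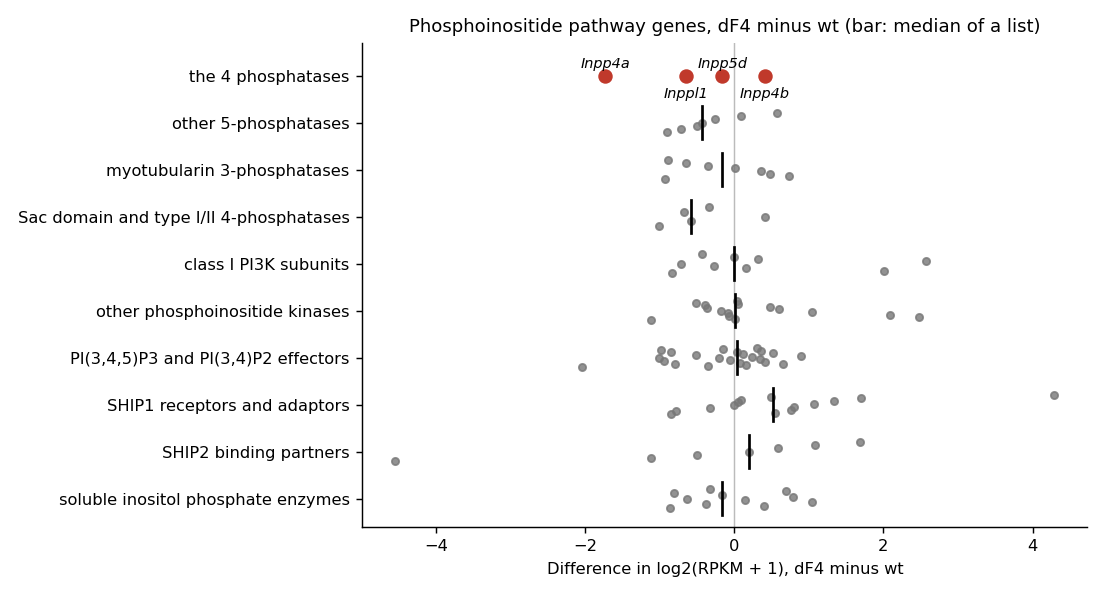
Differences in log2(RPKM + 1) between the single dF4 library and the wt mean (horizontal axis) for the main row of the 4 phosphatases (red) and for the same pathway genes (grey, with the list median as a bar). Inpp4a lies at -1.73 and Inpp4b at 0.41, and the pathway genes run from Epha2 at -4.54 to Dok3 at 4.29.

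The comparisons of dF1 and dF4 with wt share the wt libraries, so only their values are set side by side. Inppl1 stood at -1.09 in dF1 and -0.64 in dF4, Inpp5d at 0.28 and -0.16, Inpp4a at 0.09 and -1.73, and Inpp4b at 0.03 and 0.41.

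The rows with profiles most like each gene were found by Euclidean distance between log2(RPKM + 1) profiles centred on their mean over the 5 libraries, among 8205 rows. Nearest to Inppl1 were Marcks, a membrane-bound substrate of protein kinase C (distance 0.272), the transcription factor Klf11 (0.401) and the semaphorin receptor Nrp1 (0.432). Marcks was at 13.4 and 18.7 RPKM in the wt pair, 7.3 and 6.1 in the dF1 pair and 9.6 in dF4. Nrp1 was at 25.5 and 23.5 RPKM in the wt pair, 8.1 and 10.7 in the dF1 pair and 14.4 in dF4, and so lay between the groups in dF4 as Inppl1 did. Inpp5d was nearest to the copper chaperone Atox1 (0.089), the mitochondrial ribosomal protein gene Mrpl32 (0.103) and Acads (0.109). Inpp4a was nearest to Cybasc3 (0.117), Copg (0.16) and Kptn (0.162), each lower in dF4, with Cybasc3 at 140.8 RPKM there and 452.7 to 537.8 elsewhere. Inpp4b was nearest to Cnot4 (0.074), Drap1 (0.082) and Zfp526 (0.091). With 5 libraries, of which dF4 is the most distinct, likeness of this kind is a description.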

How the data were processed

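RNA of sorted Hardy fraction A cells was sequenced from 5 libraries (2 wt, 2 dF1, 1 dF4). The authors deposited RPKM, read numbers divided by transcript length and library size, for each RefSeq transcript, with transcript lengths, to 1 decimal, per the file headers. Libraries were made from mRNA with Illumina TruSeq, per the labels' protocols, and TopHat, bedtools and mm9 are named in the submitters' processing notes. Tool versions, strandedness and the division of reads between transcripts are not given there. Of the rows, 1 named no gene and was left out. RPKM summed to between 286080 and 345446 per library. In dF4, low values were multiples of 1.674 RPM for 82.6% of 2669 values (within 0.1 read), or about 598000 reads. At most 32.3% were whole in the other libraries, so their depth is unknown.

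The dF1 and wt groups were compared by a two-sided test of log2(RPKM + 1) in limma 3.58.1 (R 4.3.3, eBayes with a trend). It covered the 12213 rows whose mean across all 5 libraries reached 1 RPKM, and p-values were adjusted by Benjamini-Hochberg at a threshold of 0.05. The fit was tested on simulated data. Genes with several rows entered lists by the row with the highest mean. From each pathway list the 3 most abundant members were named, with Pik3cd, Pik3cg, Pik3r1, Akt1, Btk, Fcgr2b, Cd22 and Dok3, and for each phosphatase the 3 nearest profiles. Marker lists covered early B lineage, plasmacytoid dendritic, NK, T, neutrophil, monocyte, erythroid and megakaryocyte, and stromal and endothelial cells. One further gene of the lists is not reported here. Members and lists were chosen with earlier results of these data known. Alternatives were other pseudocounts, filters, normalizations, variances, a replicate block, summed rows and single libraries left out.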

Additional observations from a re-analysis of the deposited data

How the results depend on the processing

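Of 101 recomputed values, 87 stayed within the spread between replicates, or within 1.5 times for counts, and 14 moved. The number of transcripts called between dF1 and wt was 0, and rose to 245 with no filter on low values, 25 with a minimum mean of 5 RPKM and 33 with robust variances. It was 0 with other pseudocounts, quantile normalization, median centring and any 1 library left out, and 0 of the pathway genes were called under any setting run. With a replicate block the count was 0, and the Inppl1, Inpp5d, Inpp4a and Inpp4b differences were -1.09, 0.28, 0.09 and 0.03. The labels share only a number between genotypes. The differences between replicates correlated at 0.305 across 12213 rows, which is a hint from the data and not from the design.

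A pseudocount of 5 moved Inppl1 to -0.85 in dF1 and -0.52 in dF4, Inpp4a in dF4 to -1.5 and Inpp4b in dF4 to 0.22, and a pseudocount of 0.1 moved the last to 0.5. Quantile normalization and median centring gave -0.73 and -0.72 for Inppl1 in dF4 and 0.28 and 0.33 for Inpp4b. The 1428 rows outside wt in dF4 became 2593 with a minimum mean of 1 RPKM and 424 with a difference of at least 2, under which the main Inpp4a row was no longer counted. Without wt replicate 1, or with wt libraries allowed further apart, the second Inpp4a row was also counted as lower. Without 1 library, the dF1 difference ranged from 0.15 to 0.41 for Inpp5d, from -0.05 to 0.22 for Inpp4a and from -0.05 to 0.12 for Inpp4b, so the last 2 have no fixed sign. The dF4 depth limits Inpp4b (about 11 reads) and the second Inpp4a row (about 5 reads).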
